A study of Homo sapiens with 32 samples.

Results

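The regions described here were bound by HNF4α in all AsPC1 libraries and in none of the libraries of Panc10.05 or BxPC3. AsPC1, Panc10.05 and BxPC3 are human pancreatic ductal adenocarcinoma cell lines. Overlapping peaks of the 14 deposited lists made with the pan-HNF4α antibody were merged at 1 bp of overlap into 78074 regions, and the regions were chosen by presence in all 6 AsPC1 lists and absence from all 8 lists of the other lines. This left 927 AsPC1-only regions, 1.19% of the merged regions and 12.5% of the 7445 regions found in all 6 AsPC1 lists. The 6518 other regions of all 6 AsPC1 lists, which have a peak in 1 or more lists of Panc10.05 or BxPC3, serve for comparison, and 2325 of them were in all 14 lists.

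Binding was measured by ChIP-seq, the sequencing of DNA fragments recovered with an antibody. AsPC1 carried CRISPRi, a guided repressor that silences a promoter. It had a control guide (sgNC), a guide named for the P1 promoter of HNF4A (sgP1) or a guide named for its P2 promoter (sgP2). No doxycycline dose is given for AsPC1. AsPC1 was assayed with the pan antibody under each guide and with an antibody specific for P1 isoforms under sgNC and sgP2. Panc10.05 was assayed with doxycycline-induced P1-α2 at 25 ng/mL doxycycline or P2-α8 at 12.5 ng/mL, and BxPC3 with the same isoforms at 500 ng/mL, all with the pan antibody. Each of the 9 groups had 2 libraries. The title of the BxPC3 α8 libraries calls that isoform P1, and their genotype label, which calls it P2-α8, was followed. HNF4α was thus endogenous in AsPC1 and induced in the other lines, so that cell line, source of the protein and doxycycline cannot be told apart. The labels do not say whether the lines were clones, or whether the 2 libraries of a group came from separate cultures, so the spread between them may be technical.

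HNF4α is a nuclear receptor that binds DNA as a homodimer at direct repeats, and it maintains epithelial programmes of liver, intestine and pancreas. The P1 and P2 promoters of HNF4A give isoforms with different N-termini and a shared DNA-binding domain. P1 isoforms prevail in adult liver, and P2 isoforms are expressed in pancreas and, with P1 isoforms, in the gut.

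Of the 927 AsPC1-only regions, 867 lay on chromosomes covered by the RefSeq promoter table (GRCh38.p14), and 79 of these overlapped a window from 250 bases before to 50 bases after a transcription start. In these 79 regions, 99 windows were overlapped. Stretches of 120 bases upstream of 6 of these starts are printed below, 5′ to 3′ on the gene's strand, with coordinates of GRCh38. The first 4 were picked after their sequences were seen, to show windows that hold the HNF4 core word CAAAGNNCA on either strand (in capitals), and the 2 galectin promoters, which rank among the strongest AsPC1-only regions at a start, hold none.
RGS12 (chr4:3385036-3385155, plus strand): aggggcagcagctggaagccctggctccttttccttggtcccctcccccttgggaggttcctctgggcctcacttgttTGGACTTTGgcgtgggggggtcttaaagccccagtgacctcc
DDC (chr7:50565428-50565547, minus strand): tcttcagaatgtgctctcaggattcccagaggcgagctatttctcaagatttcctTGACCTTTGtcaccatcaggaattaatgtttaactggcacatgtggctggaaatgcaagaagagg
RAP1GAP2 (chr17:2939817-2939936, plus strand): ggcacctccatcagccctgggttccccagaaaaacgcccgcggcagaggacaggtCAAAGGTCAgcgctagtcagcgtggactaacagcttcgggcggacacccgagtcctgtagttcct
CYP2C19 (chr10:94762468-94762587, plus strand): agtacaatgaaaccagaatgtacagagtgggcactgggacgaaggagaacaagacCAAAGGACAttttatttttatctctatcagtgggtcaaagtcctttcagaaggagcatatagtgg
LGALS4 (chr19:38812946-38813065, minus strand): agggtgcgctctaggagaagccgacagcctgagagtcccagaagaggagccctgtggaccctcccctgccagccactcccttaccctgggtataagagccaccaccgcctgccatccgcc
LGALS2 (chr22:37580088-37580207, minus strand): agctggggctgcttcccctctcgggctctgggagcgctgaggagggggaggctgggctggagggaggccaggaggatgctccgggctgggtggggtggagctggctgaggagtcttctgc

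RGS12 encodes a regulator of G-protein signalling that shortens signalling by G-protein-coupled receptors. The capitals in its window are TGGACTTTG, the reverse complement of CAAAGTCCA, and begin 42 bases before the start. The peak summits of the 6 AsPC1 lists lay from 32 bases before to 7 bases after that start, with a median of 17 bases before it. In the window of DDC, which makes dopamine and serotonin from their precursors, TGACCTTTG begins 87 bases before the start, and the summits had a median of 100 bases before it. In the window of RAP1GAP2, a GTPase-activating protein for the small GTPase Rap1, CAAAGGTCA begins 89 bases before the start and the summits had a median of 99 bases before it. In the window of CYP2C19, a drug-metabolising cytochrome P450, CAAAGGACA begins 158 bases before the start, and the summits had a median of 110 bases before it. Among windows with the word that are not printed, ACOT7 and LINC02441 also had it near the median summit. Summits lay farther from it at VANGL1, LINC01133, LOC105373583 and LOC124903365. At VANGL1 the word begins 211 bases before the start, and the median summit was 422 bases before it. At LINC01133 these were 141 bases before and 637 bases after the start. LGALS4 and LGALS2 encode galectins of the digestive epithelium. Their summits had medians of 244 bases before and 45 bases after the start.

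Searched on both strands, CAAAGNNCA was found in 10 of the 99 windows of AsPC1-only regions (10.10%, exact 95% interval 4.95 to 17.8), in 9.50% of the 1600 windows overlapped by the other 6-list regions and in 5.28% of all 35116 windows. The exact word CAAAGTCCA, which CAAAGNNCA includes, was found in 1 of the 99 windows (1.01%, interval 0.0256 to 5.50), that of RGS12, in 2.31% of the windows at other regions and in 0.384% of all windows. FOXA factors, GATA factors and AP-1 are regulators of epithelial genes whose words were searched in the same windows. The FOXA word TGTTTAC was in 4.04% of the windows of AsPC1-only regions, in 3.12% of those at other regions and in 3.42% of all windows. The GATA word AGATAA was in 8.08%, 5.31% and 10.3%, and the AP-1 word TGANTCA in 9.09%, 9.25% and 7.71%, in the same order. For each word, the share in the windows at other regions lay inside the interval of the AsPC1-only regions. Several windows can belong to 1 region, these intervals cover counting error only, and a match describes letters, not binding. Many summits lay outside the overlapped window, with medians of 887 bases after the start at ADAP1 and 1312 bases before it at MPRIP. The shares thus describe promoter windows, and the words at the summits themselves were not counted.

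The AsPC1-only regions spanned the whole range of strength within AsPC1. Strength is given as the percentile of a region's strongest peak by the authors' fold enrichment within its list, with 100 the strongest. The mean percentile over the 6 lists ran from 0.0291 to 98.1, with quartiles of 45.7, 60.0 and 73.1, and 45 regions were above 90. By list, the median percentile was 77.2 and 61.5 in the sgNC libraries, 63.3 and 55.3 in the sgP1 libraries, and 54.6 and 62.8 in the sgP2 libraries. The other 6-list regions had higher medians in every list, at 84.8 and 75.5, 73.5 and 68.5, and 70.3 and 75.8. The median fold enrichment of the AsPC1-only regions was between 7.26 and 11.7 in the 6 lists. The AsPC1-only regions had a median width of 751 bp, against 943 bp for the other 6-list regions and 1069 bp for regions of all 14 lists.

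The rule has an edge on both sides. The 340 regions with all 6 AsPC1 lists and 1 other list had a median mean percentile of 58.8, and for 139 of them the other list was BxPC3 P1-α2 replicate 1, the longest of the 14 with 41808 peaks. The 510 regions with 5 AsPC1 lists and no other had a median of 40.2, and lacked sgP2 replicate 1 (168 regions) or sgP1 replicate 2 (141 regions) most often. These are the shortest AsPC1 pan lists, with 12345 and 11686 peaks. The lists also end at different evidence: the lowest −log10 q-value was just above 2 in each AsPC1 list and just above 8 in each list of the other lines, where weaker binding would therefore not be listed. A −log10 q-value of 8 or more in all 6 AsPC1 lists was reached by 602 of the 927 regions (64.9%).

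Absence was local. The nearest peak of Panc10.05 or BxPC3 lay a median of 8.99 kb from an AsPC1-only region, and for 489 regions (52.8%) it lay within 10 kb. For 76 regions (8.20%) it lay within 1 kb, and for 27 (2.91%) there was none within 100 kb. The distances ran from 49 bp to 820.9 kb. The lists of the other lines held 12681 to 41808 peaks each. The same distances were not computed for other positions, so these values are not shown to be particular to the AsPC1-only regions.

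The AsPC1-only regions lay farther from transcription starts than the other 6-list regions taken as a whole. Regions found in 1 to 3 lists of the other lines were near them in the share far from any start, but only in part in the shares close to a start. Of the 867 regions on covered chromosomes, 79 (9.11%, exact 95% interval 7.28 to 11.2) overlapped a promoter window, against 17.8% (16.9 to 18.8) of the other regions. A start lay within 1 kb of the middle of 11.5% of them and of 19.5% of the other regions, and none lay within 100 kb for 11.8% and 7.79%. The median distance was 20.9 kb, against 14.2 kb. The promoter share was lower in the AsPC1-only regions in each of 4 equal rank classes of the 7445 regions, at 8.33%, 10.9%, 8.65% and 7.41% from the weakest to the strongest class, against 23.5%, 17.0%, 14.9% and 16.5% for the other regions. The intervals of the AsPC1-only and the other regions were apart in the weakest class (5.61 to 11.8% and 21.3 to 25.8%) and overlapped in the 3 stronger ones. The other regions were not alike: regions in 1, 2 and 3 lists of the other lines had promoter shares of 14.3%, 11.8% and 19.4%, and those in 5 and 6 lists 26.0% and 24.1%. The intervals of the regions in 1 list (10.69 to 18.65%) and in 2 lists (8.66 to 15.6%) overlapped that of the AsPC1-only regions. That of the regions in 3 lists (15.76 to 23.53%) did not. Regions in 1, 2 and 3 lists had 11.2%, 10.7% and 10.4% beyond 100 kb, near the 11.8% of the AsPC1-only regions. By contrast, 57.0% (53.7 to 60.2) of the AsPC1-only regions had their middle inside a protein-coding gene, and 55.8% (54.5 to 57.0) of the other regions did. Whether the regions lay in exons or introns was not analysed here.

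**Figure D1:**
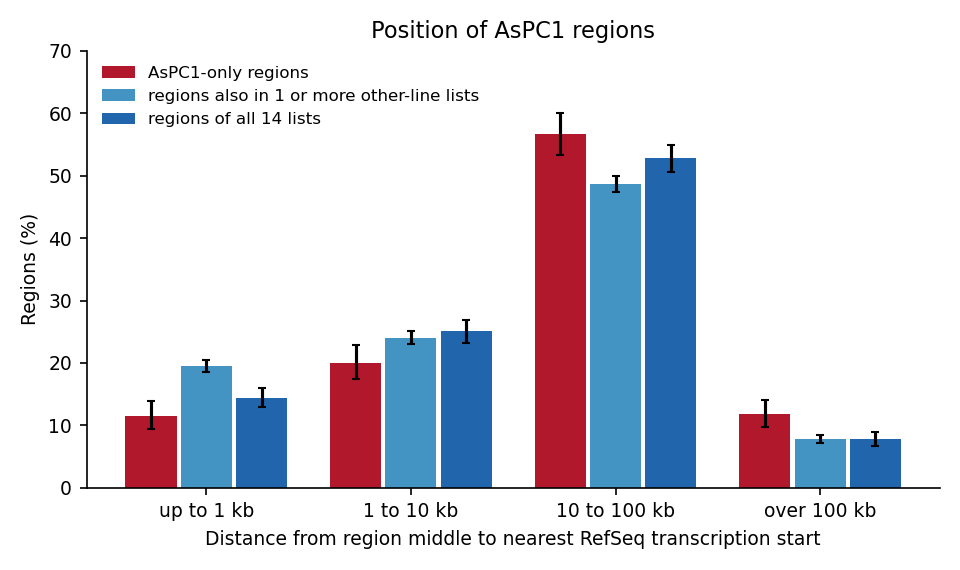
Share of regions (y axis, %) by distance from the region's middle to the nearest RefSeq transcription start (x axis, 4 classes), for AsPC1-only regions, for the other regions of all 6 AsPC1 lists and for regions of all 14 lists; bars start at 0 and error bars are exact 95% intervals of counting error. The AsPC1-only regions have the lowest share within 1 kb (11.5%) and the highest share beyond 100 kb (11.8%).

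Among the 79 regions at promoters, the strongest were those of RGS12, of the long non-coding RNA LINC02441 and of ADAP1, which encodes a GTPase-activating protein for ARF6. At RGS12 (chr4:3384514-3385751) the percentiles were 93.5 and 98.7 under sgNC, 99.3 and 99.3 under sgP1 and 97.1 and 97.6 under sgP2, and the nearest peak of another line was 60.0 kb away. At ADAP1 (chr7:925447-927672) they were 98.5 and 91.9, 84.2 and 96.8, and 97.1 and 97.1. All 6 libraries placed both regions near the top of their list. LGALS4 (chr19:38812151-38813618) had 95.4 and 93.8, 86.2 and 90.5, and 78.4 and 93.0 in the same order, and LGALS2 (chr22:37579567-37580495) had 89.6 and 88.1, 88.5 and 83.9, and 72.7 and 90.8. For both galectins the lowest value was that of sgP2 replicate 1, and the other sgP2 library was within the range of the sgNC and sgP1 libraries or above it.

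Some weaker AsPC1-only regions at promoters are given as examples. ANPEP, the brush-border aminopeptidase N, had a mean percentile of 73.3 at its start, and DDC had 72.3. SLC7A9, a subunit of the cystine transporter of kidney and gut, had 67.1, and PRODH2, a mitochondrial hydroxyproline dehydrogenase, had 63.1. NR1H3, which encodes the oxysterol receptor LXRα, had 55.6, and SLC9A3, the sodium-proton exchanger of the brush border, had 52.6. CYP2C19 had 17.1. The genes of this paragraph other than ANPEP and CYP2C19, which belong to the lists below, were picked after the regions had been seen, and promoters of many unrelated genes had regions of the same strength.

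The strongest AsPC1-only region overlapped PTGDR2, a prostaglandin D2 receptor (chr11:60851681-60853062). Its percentiles were 97.8 and 99.6 under sgNC, 96.6 and 99.6 under sgP1, and 95.2 and 99.8 under sgP2, and the nearest peak of another line was 52.3 kb away. The third by mean percentile lay in a gene-poor part of the X chromosome (chrX:90457139-90457881), 534.6 kb from TGIF2LX, with percentiles of 99.3 and 99.0, 96.4 and 97.5, and 94.4 and 96.0. It was the region farthest from any peak of the other lines, at 820.9 kb. Of the 15 strongest, 6 overlapped a protein-coding gene (PTGDR2, RGS12, AHDC1, PALM, MTHFD1L and PPP4C). The other 9 lay outside protein-coding genes, from 5.99 kb (SOWAHA) to 534.6 kb (TGIF2LX) from the nearest one. Among these 9 was the region at the promoter of the non-coding RNA LINC02441. The lowest value in any library among these 15 regions was 87.2.

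At the other end, 6 regions had a mean percentile under 10. Of these, 3 lay within 273 kb of chromosome 7 at SMURF1, a ubiquitin ligase that targets TGF-β and BMP signalling, and at ARPC1A, a subunit of the actin-nucleating Arp2/3 complex. At the SMURF1 region chr7:99143235-99144563 the fold enrichment was only 1.86 to 2.45 in the 6 lists, with −log10 q-values of 2.83 to 11.5. At the other SMURF1 region it was 2.80 to 4.73 with −log10 q-values of 13.3 to 49.4, and at ARPC1A 2.21 to 3.83 with 8.00 to 36.7. Along this stretch the AsPC1 pan lists held 14 to 21 peaks with a median fold of 3.31 to 4.62, below the median of every whole AsPC1 list (6.77 to 7.08), and 7 to 11 of these peaks were under the 10th percentile of their list. The lists of the other lines held 9 to 18 peaks there, of which 0 to 2 were under their 10th percentile. Fold enrichment is taken over a local background, and neither the input libraries nor copy number was analysed here. The other 3 weak regions, nearest H3-7 (chr1:143232903-143233241), SCGB1C2 and CWH43, all lay outside protein-coding genes. They had folds of 1.24 to 2.39 and a peak in 3 or 4 of the P1-antibody lists.

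The AsPC1-only regions were spread over the genome. In genomic order among the 7445 regions, 670 stood alone, and there were 91 runs of 2, 16 of 3, 3 of 4 and 3 of 5 AsPC1-only regions with no other 6-list region between them. The runs of 5 lay on chromosome 10 (chr10:3118646-3766683, which holds PFKP, the platelet phosphofructokinase, and chr10:30458901-31031853, which holds the kinase gene MAP3K8) and on chromosome 18 (chr18:24535346-24850573, with no protein-coding gene). Runs of 4 lay at BMP7, a bone morphogenetic protein (chr20:57092833-57295180), at TCF3 and ONECUT3, which encode transcription factors (chr19:1632778-1758158), and at ACTBL2 on chromosome 5. The BMP7 span held 2 peaks of the other lines and the span at ACTBL2 held 47. By chromosome, leaving out Y with its single 6-list region, the share of 6-list regions that were AsPC1-only ran from 5.97% (16 of 268, interval 3.45 to 9.51) on chromosome 9 to 21.7% (25 of 115, interval 14.6 to 30.4) on chromosome 18. Chromosome copy number was not analysed here.

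The antibody for P1 isoforms gave a readout that the rule did not use. Of the 927 AsPC1-only regions, 14 (1.51%) and 3 (0.324%) had a peak in the sgNC lists, and 311 (33.5%, exact 95% interval 30.5 to 36.7) and 238 (25.7%, interval 22.9 to 28.6) had one in the sgP2 lists. The shares did not overlap between the guides. The means were 0.917% ± 0.839 (SD, n = 2) and 29.6% ± 5.57 (SD, n = 2), a difference of 28.7 percentage points, with p = 0.3333 by a two-sided exact permutation test of the libraries (adjusted p = 0.6667 over 4 tests), the smallest p that 2 against 2 libraries allow. In the other 6-list regions the means were 6.27% and 52.7%. The P1-antibody lists held 697 and 260 peaks under sgNC and 5200 and 3916 under sgP2. When the 260 strongest peaks of each list were kept, each list had a peak at 3 AsPC1-only regions (0.324%), and with the 697 strongest the sgNC replicate 1 list had 14 and the sgP2 lists 15 and 14. The counts under the 2 guides were thus equal or nearly so at equal list length, apart from sgNC replicate 2, whose whole list holds 260 peaks.

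P1-antibody peaks were less frequent at the AsPC1-only regions than at the others. Peaks in both sgP2 lists were present at 164 of the 927 (17.7%, interval 15.3 to 20.3), against 40.3% (39.1 to 41.5) of the other 6-list regions, 37.4% of all 7445 regions and 63.2% of regions of all 14 lists. The share was 18.5%, 16.4% and 19.4% for regions in 1, 2 and 3 lists of the other lines, and rose through 25.7%, 25.1%, 28.8% and 42.1% for 4 to 7 lists. The AsPC1-only regions thus had a share like that of regions found in few lists of the other lines, and the increase lay among regions found in most of them. The 510 regions at the edge with 5 AsPC1 lists and no other had 1.18%.

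**Figure D2:**
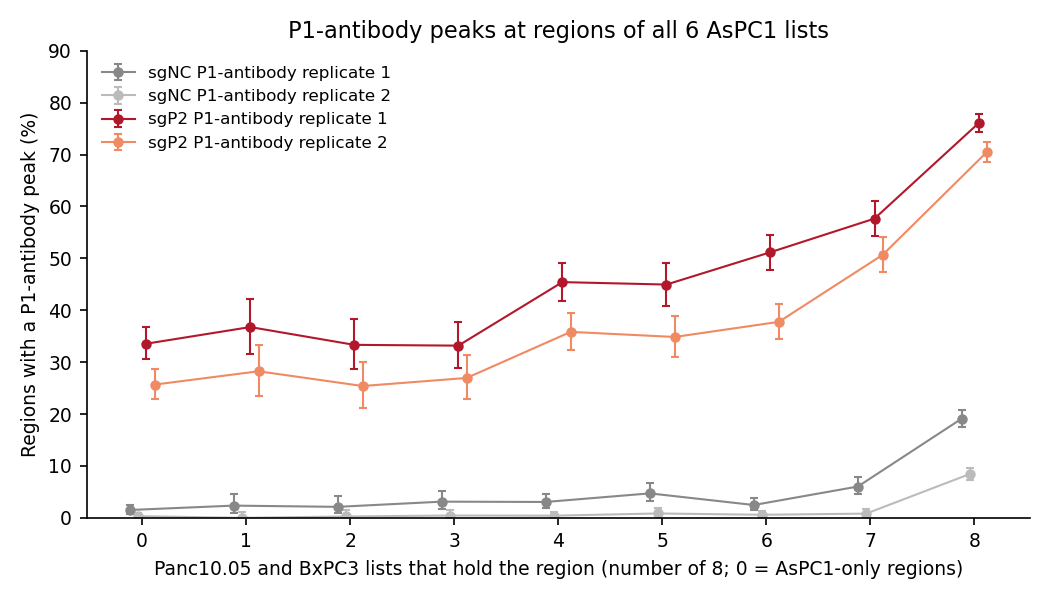
Share of the 7445 regions of all 6 AsPC1 pan lists with a peak in each of 4 P1-antibody lists (y axis, %), by the number of Panc10.05 and BxPC3 lists that hold the region (x axis, 0 to 8); 0 marks the AsPC1-only regions, each line is 1 library and error bars are exact 95% intervals of counting error. In both sgP2 libraries the shares are nearly level from 0 to 3 lists and highest at 8, while both sgNC libraries stay under 20% throughout.

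The share of AsPC1-only regions with a P1-antibody peak varied with their rank. In 4 equal classes of mean rank among the 7445 regions, peaks in both sgP2 lists were present at 1.64% of 365, 6.74% of 282, 36.6% of 194 and 79.1% of 86 AsPC1-only regions, from the weakest to the strongest class. The other regions had 3.47%, 12.7%, 46.1% and 90.3%. The intervals of the AsPC1-only and the other regions were apart in the second and the fourth class and overlapped in the first and the third. Within a class the AsPC1-only regions can still be weaker, and the difference itself was not tested. Regions with a −log10 q-value of 8 or more in all 6 AsPC1 pan lists had a share of 26.1%, against 2.15% of the other 325 AsPC1-only regions.

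**Figure D3:**
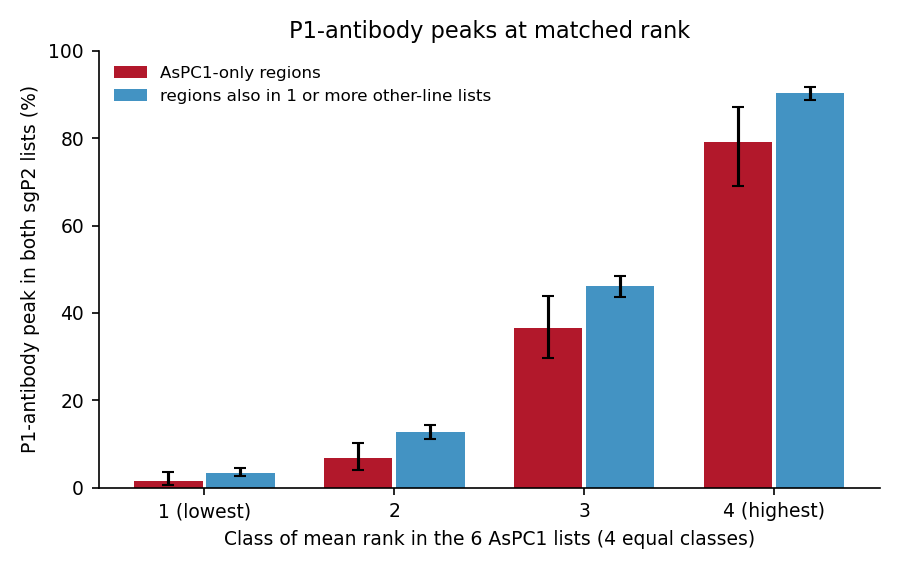
Share of regions with a P1-antibody peak in both sgP2 lists (y axis, %) by class of the mean rank (4 equal classes) of fold enrichment in the 6 AsPC1 pan lists among 7445 regions (x axis), for AsPC1-only regions and for the other regions; bars start at 0 and error bars are exact 95% intervals of counting error. Both sets rise from under 5% in the lowest class to 79.1% and 90.3% in the highest.

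A P1-antibody peak in any of the 4 lists was present at 385 of the 927 AsPC1-only regions (41.5%). The share was 65.3% of the other 6-list regions and 62.3% of all 7445. A peak in all 4 lists was present at 3 of the 927, against 181 of the 6518 other regions and 184 of all 7445. The 3 AsPC1-only regions were the X-chromosome region far from TGIF2LX, a region inside ACSF3 (chr16:89102328-89103885) and the low-fold region of chromosome 1 nearest H3-7. ACSF3 encodes a mitochondrial malonyl-CoA synthetase, and its pan percentiles were 96.1 and 94.0 under sgNC, 96.1 and 90.6 under sgP1, and 98.8 and 88.4 under sgP2. In the sgNC lists the P1-antibody percentile of the X-chromosome region was 95.1 and 93.1.

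The rank of the AsPC1-only regions was compared between guides. With 2 against 2 libraries the exact permutation test cannot give a p below 0.3333, so no difference could pass it. The rule also required a peak in all 6 lists, so regions without a peak under a guide were left out beforehand. The ranks describe only regions that kept a peak under every guide. By percentile within whole lists, the median was 69.3 ± 11.1 (SD, n = 2) under sgNC, 59.3 ± 5.65 under sgP1 and 58.7 ± 5.76 under sgP2. The differences from sgNC were −10.0 for sgP1 and −10.6 for sgP2, each with p = 0.6667 by the two-sided exact permutation test (adjusted p = 0.6667), and the other 6-list regions gave −9.14 and −7.11. The difference between sgP1 and sgP2 was 0.61, with the same p in the exact permutation test. The sgNC replicate 1 list was the longest of the 6, with 24295 peaks against 11686 to 15118 in the others. Ranked instead among the 7445 regions that all 6 lists share, the medians were 34.7 and 32.7 under sgNC, 37.1 and 35.7 under sgP1, and 33.0 and 33.4 under sgP2. On this scale both sgP1 libraries lay above all 4 others, by 2.67 points over sgNC and 3.15 over sgP2 (p = 0.3333 each, exact permutation test, the smallest possible), and sgP2 differed from sgNC by −0.48 (p = 1.0, exact permutation test). The direction of the sgP1 difference from sgNC thus turned with the scale, and the shared-rank values were computed after the first had been seen. The other regions differed by −0.66 for sgP1 against sgNC and by 0.08 for sgP2 against sgNC. Both sets are ranked together in the same 7445 regions. A rise of 1 set therefore tends to come with a fall of the other, and the opposite sign is not a separate result.

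**Figure D4:**
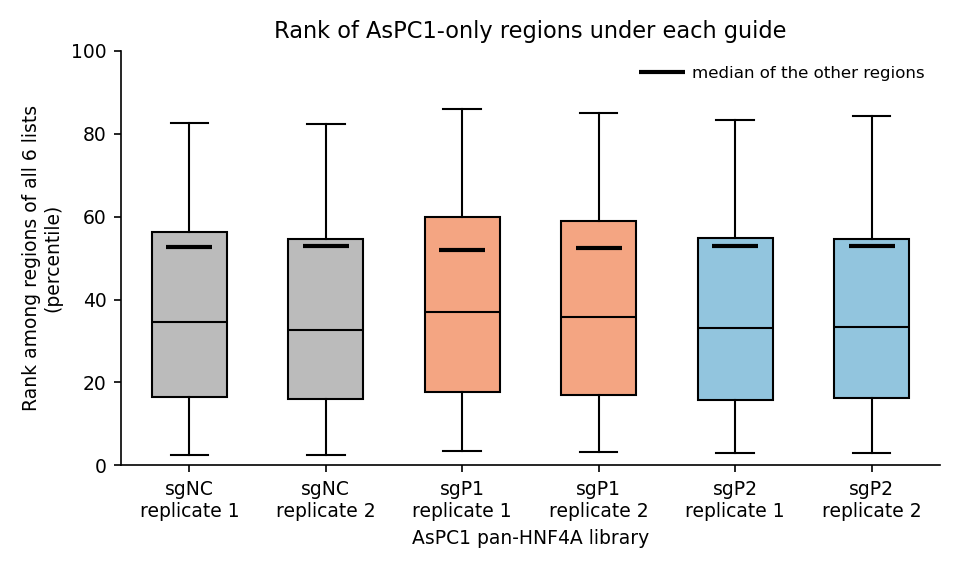
Rank percentile of the 927 AsPC1-only regions among the 7445 regions of all 6 lists (y axis) in each AsPC1 pan-HNF4α library (x axis); boxes show quartiles and median, whiskers the 5th to 95th percentiles, and thick black bars the median of the other 6518 regions. The medians of the AsPC1-only regions lie between 32.7 and 37.1, below those of the other regions in every library.

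Of the 927 regions, 221 (23.8%) ranked higher in both sgP1 libraries than in both sgNC libraries, against 20.9% of all 7445 regions, and 149 (16.1%) ranked lower in both, against 19.8%. For sgP2 against sgNC, 174 (18.8%) ranked higher in both, against 19.7% of all regions, and 179 (19.3%) lower in both, against 18.6%. For sgP1 against sgP2, 220 (23.7%) ranked higher in both, against 20.5%, and 136 (14.7%) lower in both, against 20.1%. These shares were near the background, with the widest gap of the 6 in the last comparison. Comparisons with sgNC share its libraries.

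Some single regions ranked far apart under sgP1 and sgNC. The region 177.7 kb from TMEM132B (chr12:125839641-125840535) ranked 8.42 and 6.64 under sgNC, 55.7 and 62.4 under sgP1 and 26.9 and 19.6 under sgP2. Next to UPK1B, a uroplakin of urothelium, a region ranked 4.81 and 13.8, 45.3 and 57.9, and 5.55 and 23.9 in the same order. A region inside IGSF11, which lies in the same part of chromosome 3 and encodes an adhesion protein, ranked 2.51 and 2.73, 36.6 and 63.0, and 20.4 and 3.63. At KLF16, a zinc-finger transcription factor, a region ranked 36.9 and 29.3, 84.2 and 66.2, and 67.5 and 39.1, so that both sgP2 libraries were also above both sgNC libraries, as they were at the TMEM132B and IGSF11 regions. In the other direction, a region 193.7 kb from ACTBL2 ranked 80.3 and 71.6 under sgNC, 18.5 and 45.3 under sgP1, and 61.1 and 47.1 under sgP2, where both libraries were below sgNC as well. At GRM7, a metabotropic glutamate receptor, the ranks were 61.0 and 74.6, 35.7 and 14.6, and 70.9 and 44.1. In these 6 regions the 2 libraries of sgP1 did not overlap those of sgNC, which was the condition for naming them.

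Of the 5 regions given here for their difference between sgP2 and sgNC, 3 did not overlap sgNC under sgP1 either. At PLS1, the plastin of microvilli, a region ranked 35.2 and 63.3 under sgNC, 29.3 and 43.6 under sgP1 and 9.11 and 4.16 under sgP2. At SLC12A7, a potassium-chloride cotransporter, the ranks were 72.0 and 47.7, 28.4 and 20.7, and 4.55 and 8.46 in the same order, lower than sgNC under both guides. At HOXC11, a homeobox gene, they were 82.6 and 82.7, 60.6 and 72.1, and 13.2 and 52.1, again lower under both. A region inside GLI3, a transcription factor of Hedgehog signalling, ranked 32.7 and 15.3 under sgNC, 49.3 and 63.5 under sgP1 and 67.8 and 59.2 under sgP2, higher under both guides. A region 19.5 kb from CFAP46, a protein of motile cilia, ranked 26.5 and 45.2, 31.7 and 66.4, and 86.5 and 70.9. The comparisons share the sgNC libraries. With 2 libraries a group, no single region was tested.

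Near genes, the AsPC1-only regions mostly added to other binding. Of 20037 protein-coding genes, 1555 (7.76%) had an AsPC1-only region within 50 kb, 167 of them had 2 and 24 had 3 or more. Another 6-list region lay within 50 kb of 1054 of the 1555, and 501 (32.2%) had AsPC1-only regions alone. Peaks of the other lines lay within 50 kb of most of these genes: all 8 lists had one at 916 (58.9%), and no list at 28 (1.80%). For the 7113 genes with other 6-list regions and no AsPC1-only region, all 8 lists had one at 67.1%. HNF4A itself had neither an AsPC1-only region nor another 6-list region within 50 kb, while all 8 lists of the other lines had a peak there. A 6-list region needs a peak in every AsPC1 list, also under the guides named for the HNF4A promoters. Peaks in only some AsPC1 lists were not counted here, so AsPC1 binding at HNF4A is not excluded. The other lines carried induced HNF4α, and their input libraries were not analysed.

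The genes with the most AsPC1-only regions within 50 kb were DPYSL2, ATP8B3 and SCARB1 with 4 each. DPYSL2 encodes a regulator of microtubules in growing axons, ATP8B3 a phospholipid-transporting ATPase and SCARB1 the receptor for high-density lipoprotein. The mean percentile of the regions at SCARB1 ran from 25.4 to 59.9, and that of the regions at DPYSL2 from 41.6 to 87.7. CDH17, the liver-intestine cadherin of gut epithelium, had 3 such regions, with means of 58.7, 63.9 and 92.5. The strongest of these had 95.5 and 93.9 under sgNC, 87.8 and 91.4 under sgP1 and 93.8 and 92.6 under sgP2, with P1-antibody peaks in both sgP2 lists and neither sgNC list. SFMBT2, a chromatin protein, ADAP1, CHLSN and PRKG1, a cGMP-dependent kinase, also had 3 each, and all 3 regions at CHLSN had P1-antibody peaks in both sgP2 lists. Long genes have more room for regions, and gene length was not adjusted for.

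The 11 gene lists cover gut, liver and tumour genes and also clock, cell cycle and neuronal adhesion genes. Of their 244 genes, 34 (13.9%) had an AsPC1-only region within 50 kb. Over all protein-coding genes with any 6-list region within 50 kb, 17.9% had an AsPC1-only region, and 34 of the 120 such listed genes (28.3%) did. For 10 of the 34 no other 6-list region lay within 50 kb, and for 23 all 8 lists of the other lines had a peak within 50 kb. Some of the lists hold known HNF4α targets, and nothing particular to the lists was tested.

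The gut and liver transcription factors had 8 of 30 genes with an AsPC1-only region. The strongest was 9.15 kb outside KLF5, a zinc-finger factor of gut epithelium (chr13:73044779-73045828), at 97.0 and 84.9 under sgNC, 90.9 and 98.0 under sgP1 and 96.4 and 95.4 under sgP2. GATA6, a factor of endodermal and classical tumour identity, held a region (chr18:22193889-22194655) at 91.7 and 82.6, 80.0 and 94.8, and 58.1 and 93.4. The low value of GATA6 was that of sgP2 replicate 1, and the groups overlapped. RXRA, which encodes the retinoid X receptor, held a region at 91.0 and 92.2, 77.7 and 80.5, and 90.1 and 80.1. The pancreatic factor PDX1 and the intestinal factor CDX2 are neighbours on chromosome 13 and shared 2 regions, with mean percentiles of 63.8 and 62.6, which lay at promoters of the non-coding RNAs PLUT and LINC00543. EHF, an epithelial ETS factor, had 2 regions at 68.5 and 51.6, ESRRA, an orphan nuclear receptor of energy metabolism, 1 at 54.9 and PPARA, the fatty acid receptor, 1 at 38.9.

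Intestinal epithelium genes had 5 of 30 with an AsPC1-only region, namely CDH17, LGALS4, ANPEP, KRT20 and GPA33. KRT20, the keratin of differentiated enterocytes, had 1 at 79.9 by mean percentile, 19.2 kb outside the gene, and GPA33, a surface antigen of colon epithelium, had 1 at 29.8. The classical pancreatic cancer list, which shares CDH17, LGALS4 and KRT20 with the intestinal list and GATA6 with the transcription factors, had 6 of 25, among them CLRN3 with a region at 80.9 only 66 bp from a peak of another line. The basal-like list had 4 of 27, led by a region inside EGFR, the epidermal growth factor receptor (chr7:55077410-55078584), at 93.7 and 83.8, 82.2 and 86.9, and 93.4 and 93.7. KRT17 and LEMD1 had regions at 62.6 and 20.3. The region counted for TNS4, at 33.0, lay 32.1 kb outside that gene and at a promoter of IGFBP4. Regions were thus found at genes of both tumour subtypes.

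Of the genes of epithelial-mesenchymal transition 6 of 20 had an AsPC1-only region. TGFBR2, a receptor of TGF-β, had 2, of which the stronger (chr3:30583764-30584427) was at 94.8 and 85.4, 91.3 and 91.4, and 89.4 and 79.8 and had no P1-antibody peak in any list. The weaker, inside the gene, had a mean percentile of 71.7 and P1-antibody peaks in both sgP2 lists. FN1, which encodes fibronectin, had 71.8, SMAD3, a TGF-β effector, 66.8, EPCAM 51.2 and ITGB1, an integrin chain, 29.6. The region counted for VIM, which encodes vimentin, had 54.8 and lay 26.4 kb outside that gene and at a promoter of TRDMT1. Clock genes had 4 of 17, namely PER2 with 2 regions at 74.1 and 68.1, CLOCK at 46.2, NR1D2 at 40.0 and CRY2 at 22.1. Neuronal adhesion genes had 3 of 20 (OPCML at 68.9, DLGAP1 at 63.0 and CNTN6 at 49.6), and hepatic metabolism genes 2 of 29 (CYP2D6 at 63.9 and CYP2C19). No AsPC1-only region lay within 50 kb of any of the 16 gastric identity genes, 26 genes of secreted liver proteins or 16 cell cycle genes. Of these genes, 4, 8 and 7 had another 6-list region. Over all protein-coding genes with any 6-list region, 17.9% had an AsPC1-only region. With so few genes, a lack at these lists was not tested.

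**Figure D5:**
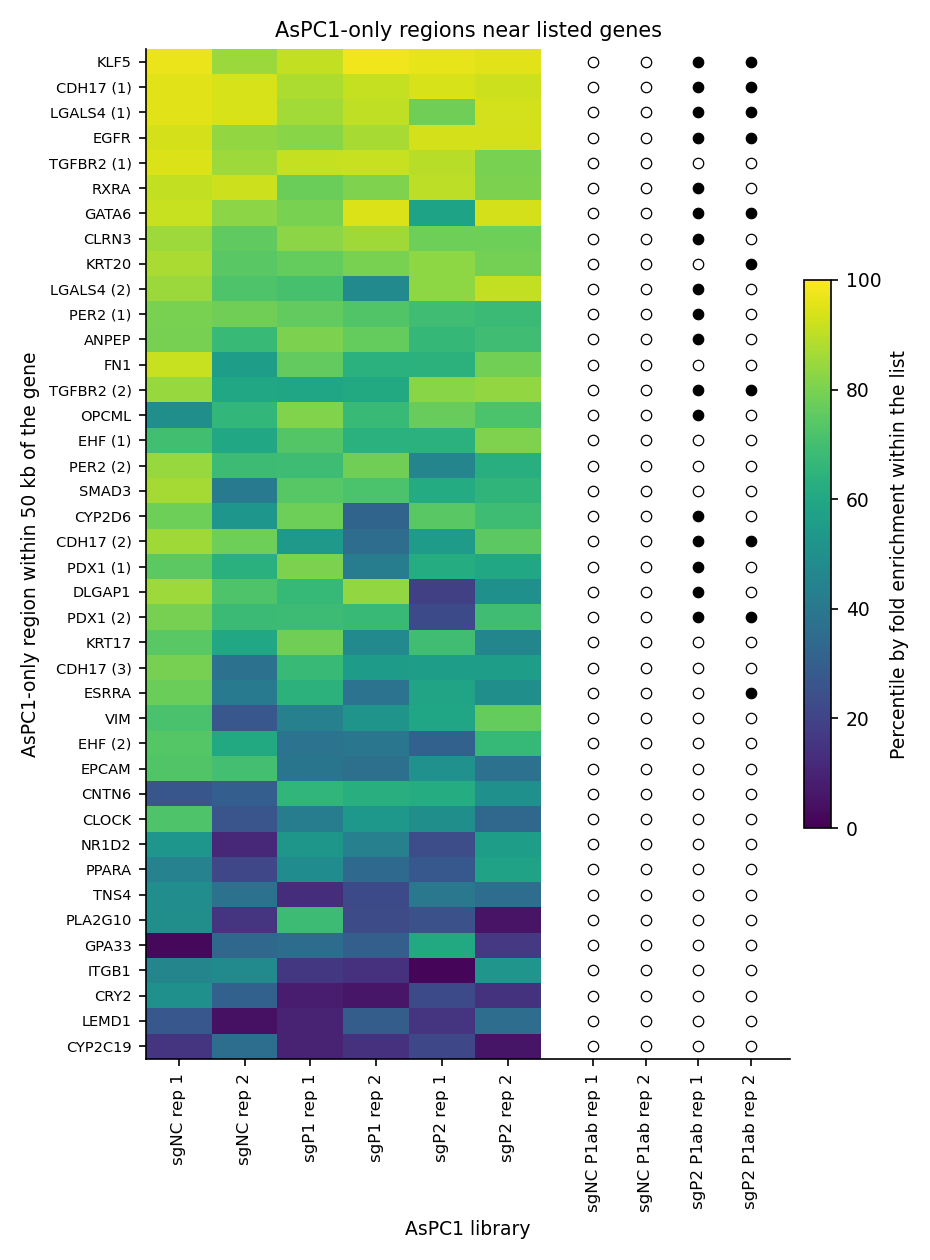
Percentile by fold enrichment (colour) of the 40 AsPC1-only regions within 50 kb of a listed gene (rows, ordered by mean percentile) in 6 AsPC1 pan libraries (left columns), with filled circles where a P1-antibody list of AsPC1 held a peak (right columns); numbers in brackets tell regions of 1 gene apart, and the regions marked PDX1 are also those of CDX2. Of the 40 regions, 8 had P1-antibody peaks in both sgP2 lists, 11 in 1 of them and 0 in an sgNC list.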

How the data were processed

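ChIP-seq of HNF4α in 3 pancreatic cancer cell lines was deposited as 18 peak lists, 1 per library, so peaks were called per sample; 14 input libraries were not analysed. The submitters' processing notes name Bowtie2 2.2.9, MACS2 2.2.7 and the builds hg38 and mm10 without saying which step used which; human coordinates were read as hg38, and read depths are not given in the sources used here. In the narrowPeak layout, the deposited values are the authors' fold enrichment (a ratio to local background) and −log10 p- and q-values. Fold and q are used only to rank or filter within a list. From these, peaks were merged at 1 bp (Python 3.11.15, pandas 2.3.3, numpy 2.4.6, scipy 1.17.1; overlaps checked against bedtools 2.31.1), regions were matched to RefSeq genes within 50 kb, and shares were given exact (Clopper-Pearson) 95% intervals, which cover counting error only. Groups came from the labels. Contrasts of 2 against 2 libraries were tested by exact enumeration of the library labels (a two-sided permutation test), and the 4 p-values were adjusted by the Benjamini-Hochberg method.

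The text names the 15 strongest regions, those with P1-antibody peaks in all 4 lists, the 8 genes with most regions, all listed genes with a region, the 5 largest rank differences in each direction and guide, and the 10 strongest at promoters, in full or in part. Rank differences were taken from ranks among shared regions in place of whole-list percentiles, since the lists differ in length. Planned motif counts at summits were not run because no genome was used; promoter windows, none on chromosome 8, were searched instead. Members and gene lists were chosen with earlier results of these data known, and 2 listed genes are not reported here and were left out of the lists. Same-numbered libraries did not deviate together (correlations of −0.0369 to 0.00923 over 7445 regions), so numbers were not treated as pairs. Alternatives changed the q-value minimum, the overlap, the list length, the reach to genes and the libraries included.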

Additional observations from a re-analysis of the deposited data

How the results depend on the processing

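The 927 regions became 603 with a −log10 q-value of at least 8 in every pan list, 550 with a reciprocal overlap of 50% and 1652 with pan lists cut to an equal length of 11686 peaks, and 932 to 1095 when 1 pan library was left out. The 34 listed genes near them became 22, 23 and 49 under the same 3 settings, 22 within 10 kb, and 34 to 37 without 1 library. The difference in P1-antibody share, 28.7 points, was 24.7 to 32.6 without 1 library, 0.0 with P1-antibody lists of equal length and 0.65 with lists cut to that of sgNC replicate 1, an alternative added after the data were seen. The sgP1 difference from sgNC in median percentile, −10.0, was 3.76 with pan lists of equal length and 2.67 by rank among shared regions, and −18.6 to −1.93 without 1 library; the sgP2 difference, −10.6, was −19.2 to −2.82. The sgP1 difference from sgP2, 0.61, ran from −3.04 (without sgP1 replicate 1) to 4.92, and was −1.85 without sgP2 replicate 1. The share inside genes stayed between 56.2 and 57.6% without 1 library. With the replicate number as a block, the values were unchanged at 28.69, −10.01, −10.62 and 0.61, with permutation p of 0.5, 0.5, 1.0 and 1.0; the numbers are not known to pair the libraries. With 2 libraries a group, no contrast can go below 0.3333 in the exact permutation test. The lists give no read depth, and absence from a list can mean weak evidence rather than no binding.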
